A study of Mus musculus with 2 samples.

Results

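The 45 genes described here are members of the nuclear receptor family, taken from a list of receptor symbols and found, all 45, among the 22383 features of the deposited count matrices. They were measured by single-cell RNA sequencing of mouse pancreatic islets, the hormone-secreting cell clusters of the pancreas. Mice aged 5 weeks of 2 groups were compared, with 1 library each of 150 islets pooled from 4 mice and kept in culture overnight. The control group, labelled wildtype, consisted of littermates without Cre recombinase. The other group, labelled TBL/RβKO, carried Cre inserted at the endogenous Ins1 gene together with loxP-flanked Tbl1x and Tbl1xr1, whose products are co-factors in the NCoR/SMRT corepressor complex. Cre at Ins1 is active in insulin-producing β-cells, so the other islet cells were expected to keep both genes. Every value therefore describes 2 libraries. With no replicates there was no spread to test a difference by, and no test was made.

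Nuclear receptors are transcription factors that bind DNA, many of them as dimers with a retinoid X receptor, and many are switched by a small lipid-soluble ligand such as thyroid hormone, retinoic acid, a bile acid, an oxysterol, a fatty acid, vitamin D or a steroid. Without ligand, the thyroid hormone and retinoic acid receptors hold the NCoR/SMRT complex, to which TBL1X and TBL1XR1 belong, on their target genes, and ligand exchanges it for coactivators. In the pancreas, HNF4α is best known through an inherited form of diabetes that arises from its mutation, and the clock repressors of the NR1D group and the vitamin D, liver X and farnesoid X receptors have been studied in β-cells.

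Barcodes with more than 2500 detected genes and a mitochondrial share under 10% were kept, 4747 of 7067 in the control and 4179 of 5833 in the library labelled TBL/RβKO. The libraries shared 14 barcode sequences. Each kept barcode was put in the class of its most abundant hormone, insulin (Ins1 plus Ins2), glucagon (Gcg), somatostatin (Sst) or pancreatic polypeptide (Ppy), if that hormone reached 100 UMIs per 10000. A UMI is a molecular tag that counts 1 captured transcript. The insulin class held 2877 control barcodes and 1338 of the library labelled TBL/RβKO, the Gcg class 1284 and 1546, the Sst class 223 and 374 and the Ppy class 259 and 495. UMIs were summed over the barcodes of a class, and a level is the sum per 1000000 UMIs outside the hormone and mitochondrial genes (CPM), given with an exact 95% Poisson interval. Such intervals cover counting error only. The members' levels in the insulin class rest on 75846303 and 57505782 such UMIs, those in the Sst class on 3981343 and 7863234.

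The insulin and Sst classes were checked by markers that did not define them. Mafa and Slc2a2, a β-cell transcription factor and glucose transporter, stood at 4.63 and 3.16 UMIs per 10000 in the control insulin class, against 0.222 and 0.220 or less in the other control classes. In the insulin class of the library labelled TBL/RβKO they stood at 0.855 and 0.553. Nkx6-1 and Ucn3 stood at 1.89 and 1.52 in the control insulin class, and at 0.613 and 0.0703 or less in the other control classes. In the library labelled TBL/RβKO Nkx6-1 stood at 1.15 in the insulin class and 0.857 in the Ppy class. Pdx1 did not set the insulin class apart from the Sst class. It stood at 1.14 and 0.987 in the control and at 0.813 and 0.963 in the other library. Hhex, a δ-cell factor, stood at 2.09 and 1.59 in the Sst classes. The Ppy class of the library labelled TBL/RβKO held 562 CPM of Tbl1x, as against 197 CPM in the control, and 220 CPM of Tbl1xr1, as against 72.8. Of its 495 barcodes, 288 held a second hormone at more than 10% of the first, compared with 104 of 259 in the control. The part of such barcodes in the results was not tested beyond the values given with and without them.

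The targeted genes went against the label when counted over whole genes. In the insulin class Tbl1x stood at 233 CPM in the control library and 616 CPM in that labelled TBL/RβKO, and Tbl1xr1 at 48.1 and 226 CPM. Counts of 3′ tags over a whole gene cannot tell a transcript that lacks the floxed part from an intact one. Cre followed the label, with 0 UMIs in the control library and 3247 in the other, of which 3107 lay in the insulin class. For these reasons that library is named by its label throughout.

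The insulin class was the one in which most nuclear receptors differed. Of the 45 members, 31 passed the minimum level there, a mean of 2 CPM and 20 UMIs over both libraries. For each, the log2 ratio of the library labelled TBL/RβKO over the control was taken relative to the median of all 11892 genes tested in the class, and a gene was counted as higher or lower past 2-fold. 6 members were higher, where 5.46% of all tested genes were, and 6 were lower, where 2.95% of all tested genes were. Together they made up 38.7% of the tested members, beside 8.41% of all tested genes. The median size of the log2 ratio, whatever its sign, was 0.55 over the tested members and 0.24 over all tested genes. The members' median with sign was 0.14, since higher and lower members were about as many. Nr1i2 passed the minimum only through its level in the library labelled TBL/RβKO, and Ppara reached 2 CPM only in the control.

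**Figure D1:**
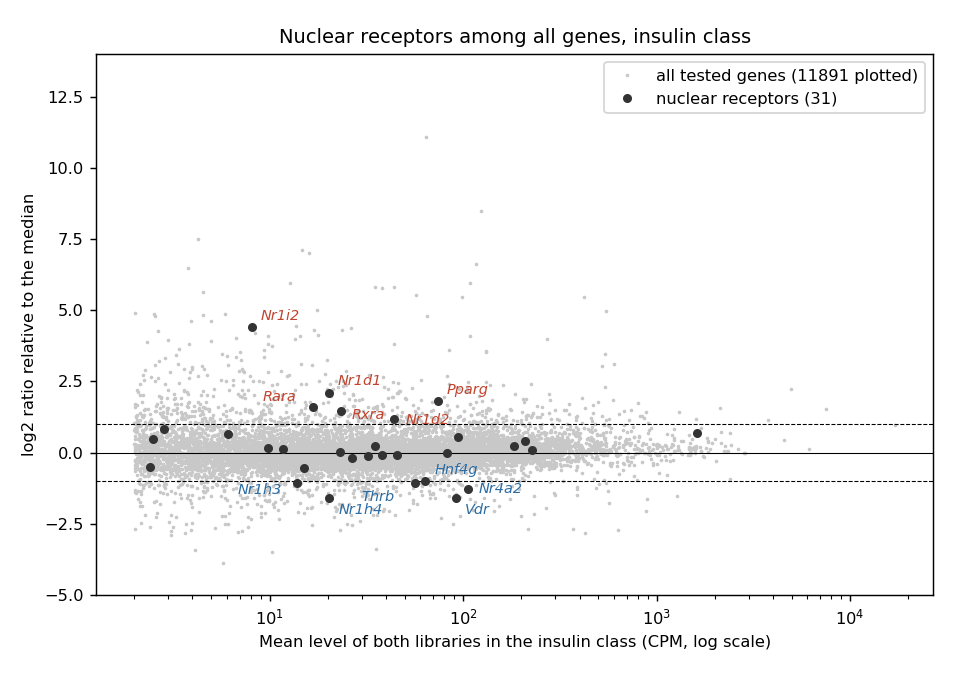
The log2 ratio of the library labelled TBL/RβKO over the control, relative to the median of all tested genes (vertical axis), against the mean level of both libraries in CPM (horizontal axis, log scale), for the insulin class. Grey points are 11891 genes with a finite ratio, black points the 31 nuclear receptors, and dashed lines mark 2-fold; 6 receptors lie above the upper line (red names) and 6 below the lower one (blue names).

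The ratios depended on what was counted as the total. Hormone transcripts took a larger part of the control insulin class, so that only 41.6% of its UMIs lay outside the hormone and mitochondrial genes, against 56.9% in the other library. Scaling over all UMIs moved the median log2 ratio of all genes from -0.16 to 0.29, a shift of 0.45, and the ratios are given relative to that median for this reason. Without centring, 4.36% of all tested genes were higher and 4.11% lower. With all UMIs and no centring these shares were 8.46% and 1.55%, and 6 members were higher and 2 lower. The 12 members past 2-fold kept the sign of their ratio under each of these scalings. Thra, Rarg, Ppard, Nr1h2, Hnf4a, Nr2c2, Nr2f6, Esrra and Nr6a1 did not, so no direction is given for these 9 in the insulin class.

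Markers of other cells moved in the same class. The summed level of 6 macrophage markers (C1qa, C1qb, C1qc, Lyz2, Cd68 and Adgre1) was 0.709 UMIs per 10000 in the control insulin class and 0.235 in the other library, with 3 and 1 of the 6 at 10 CPM or more and none at 0. That of 5 ductal markers was 1.83 and 6.50, mostly Krt7 (1.57 and 4.34) and Spp1 (0.238 and 1.50). The ductal keratin Krt19 stood at 0.0112 and 0.636, the ductal factor Sox9 at 0.00994 and 0.0299 and Cftr at 0.00104 and 0.00168. That of 6 stromal markers was 0.225 and 0.796, mostly Mgp (0.208 and 0.580). The part of these cells in the results was not tested. Barcodes with 6000 detected genes or more made up 49.5% of the control insulin class and 76.7% of the other.

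**Figure D2:**
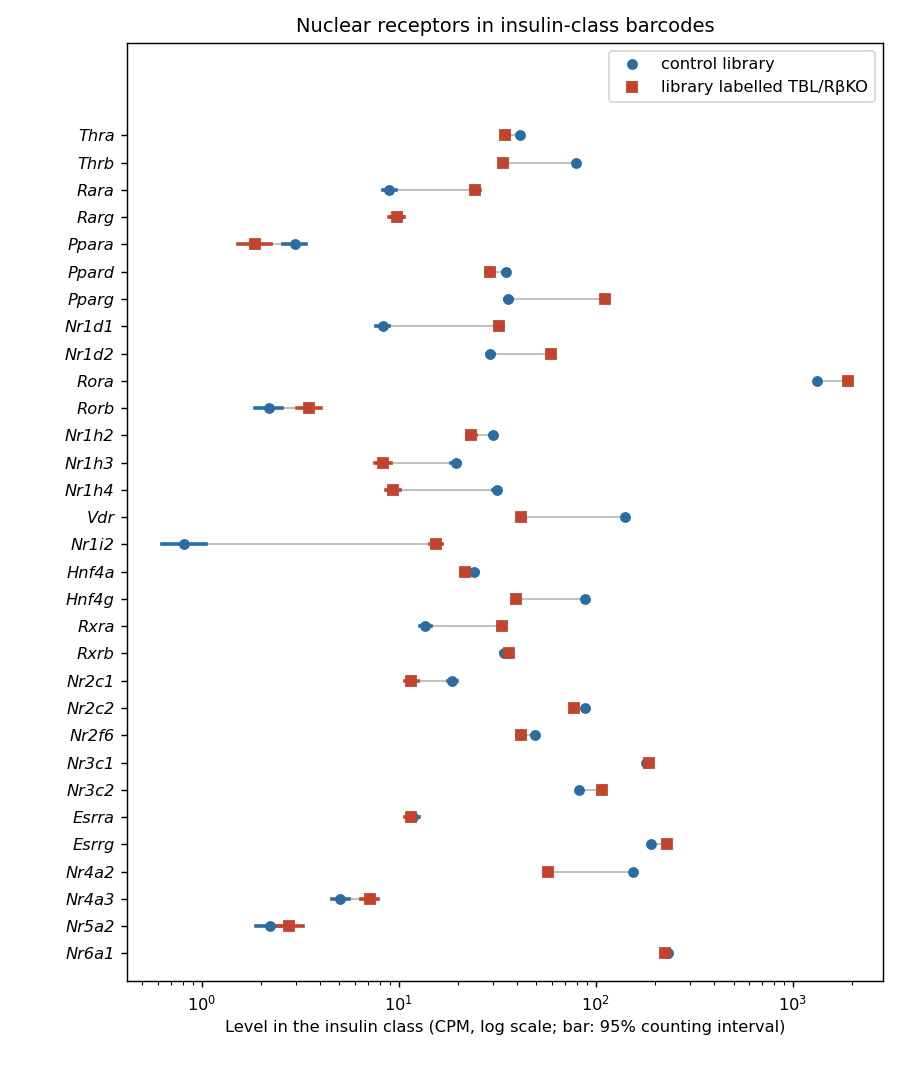
Levels of the 31 tested nuclear receptors in the insulin class (horizontal axis, CPM, log scale), in the control (blue circles) and the library labelled TBL/RβKO (red squares), with 95% Poisson intervals that are often narrower than the symbol. The widest gap is that of Nr1i2, from 0.817 to 15.4 CPM, and the receptors with the red square far to the left are Vdr, Nr1h4, Nr4a2, Nr1h3, Thrb and Hnf4g.

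Among the receptors for xenobiotics and bile acids, 2 moved in opposite directions. Nr1i2, the pregnane X receptor, which senses bile acids and foreign compounds in liver and gut, had 62 UMIs in the control insulin class and 888 in the library labelled TBL/RβKO. Its levels were 0.817 CPM (0.627 to 1.05) and 15.4 CPM (14.4 to 16.5), with a relative log2 ratio of 4.40 (4.03 to 4.80). Nr1h4, the farnesoid X receptor for bile acids, stood at 31.4 CPM (30.1 to 32.7) and 9.39 CPM (8.61 to 10.2), with a relative log2 ratio of -1.58 (-1.72 to -1.44). Nr1i3, the constitutive androstane receptor and closest relative of Nr1i2, had 5 and 9 UMIs and was not tested, and Nr0b2, the small heterodimer partner induced by the farnesoid X receptor in liver, had 4 and 18.

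Vdr, the vitamin D receptor, was lower by about the same ratio. It stood at 141 CPM (138 to 144) in the control library and 41.9 CPM (40.3 to 43.7) in that labelled TBL/RβKO, from 10701 and 2412 UMIs. The relative log2 ratio was -1.59 (-1.65 to -1.53).

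The fatty acid receptors diverged. Pparg, the adipocyte receptor that drives fat storage, stood at 36.0 CPM (34.7 to 37.4) and 112 CPM (109 to 115), with a relative log2 ratio of 1.80 (1.73 to 1.86). Ppard, a widely expressed receptor of fatty acid oxidation, stood at 35.1 CPM (33.8 to 36.4) and 29.1 CPM (27.7 to 30.5). Ppara, the main fatty acid receptor of liver, was at 2.98 CPM (2.60 to 3.39) and 1.86 CPM (1.52 to 2.25), with a relative log2 ratio of -0.52. Of the 3, Pparg alone was past 2-fold.

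The oxysterol receptors were also unlike each other. Nr1h3 (LXRα), which induces cholesterol efflux and fatty acid synthesis, stood at 19.5 CPM (18.5 to 20.5) and 8.33 CPM (7.60 to 9.11), with a relative log2 ratio of -1.07 (-1.22 to -0.92). It was past 2-fold in 4 of 9 alternatives, over which the ratio ran from -1.23 to -0.59. Its paralog Nr1h2 (LXRβ) was at 30.1 and 23.4 CPM. Macrophages express Nr1h3, and barcodes with macrophage markers held 71.2 CPM of it in the control library and 121 CPM in the other. At the share of macrophage markers in the insulin class, 1.06% and 0.247% of that in those barcodes, such cells would add 0.753 of the 19.5 CPM and 0.299 of the 8.33 CPM. This estimate rests on summed markers in 36 and 52 macrophage-like barcodes. The part of macrophages in the levels and the ratio of Nr1h3 was not tested.

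Of the thyroid hormone receptors, Thrb was lower and Thra stayed near the median. Thrb went from 79.1 CPM (77.1 to 81.1) in the control to 34.0 CPM (32.6 to 35.6), with a relative log2 ratio of -1.06 (-1.13 to -0.98). Thra stood at 41.3 CPM (39.8 to 42.7) and 34.8 CPM (33.3 to 36.4), with a relative log2 ratio of -0.09.

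Both the retinoic acid receptor Rara and its dimer partner Rxra were higher. Rara stood at 8.95 CPM (8.29 to 9.65) and 24.5 CPM (23.2 to 25.8), with a relative log2 ratio of 1.61 (1.48 to 1.74). Rxra, a retinoid X receptor that pairs with the thyroid, retinoic acid, vitamin D, PPAR, LXR and farnesoid receptors, was at 13.6 CPM (12.8 to 14.5) and 33.3 CPM (31.8 to 34.8), with a relative log2 ratio of 1.45 (1.34 to 1.56). Their tested paralogs lay closer to the median. Rarg stood at 9.80 and 9.76 CPM, Rxrb at 34.4 and 36.1 CPM with a relative log2 ratio of 0.23. Rarb had 21 and 34 UMIs and Rxrg 0 and 2, and neither was tested.

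The clock repressors of the NR1D group (REV-ERB), which compete with the RORs for the same DNA elements and recruit NCoR, were both higher. Nr1d1 stood at 8.29 CPM (7.66 to 8.97) and 32.2 CPM (30.7 to 33.7), with a relative log2 ratio of 2.11 (1.98 to 2.25). Nr1d2 stood at 29.1 CPM (27.9 to 30.4) and 59.2 CPM (57.2 to 61.2), with a relative log2 ratio of 1.18 (1.11 to 1.26). Rora, an activator of the same elements, was at 1323 CPM (1315 to 1331) and 1902 CPM (1891 to 1913), with a relative log2 ratio of 0.68, and Rorb at 2.19 and 3.50 CPM.

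Hnf4g and Nr4a2 were the other members past 2-fold. Hnf4g, an HNF4 of gut and pancreas, stood at 88.4 CPM (86.3 to 90.5) and 39.5 CPM (37.8 to 41.1), 2.01-fold lower relative to the median (log2 interval -1.07 to -0.93), at the limit. Hnf4a was at 24.2 and 21.8 CPM, with a relative log2 ratio of 0.01. Nr4a2 (NURR1), an orphan receptor encoded by an immediate early gene, stood at 155 CPM (152 to 158) and 57.1 CPM (55.2 to 59.1), with a relative log2 ratio of -1.28 (-1.34 to -1.23). Its paralog Nr4a3 was at 5.05 and 7.15 CPM with a ratio of 0.66, which had the other sign when the class was divided by insulin share (-0.17 at high insulin and -0.76 at low insulin).

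The tested steroid receptors and the remaining tested orphan receptors were within 2-fold in the insulin class. The glucocorticoid receptor Nr3c1 stood at 179 and 187 CPM and the mineralocorticoid receptor Nr3c2 at 81.9 and 107 CPM, with relative log2 ratios of 0.22 (0.18 to 0.26) and 0.55 (0.50 to 0.60). The oestrogen-related receptors Esrra and Esrrg, which regulate mitochondrial genes, were at 11.8 and 11.6 CPM and at 191 and 229 CPM. Nr2c1, a testicular orphan receptor, was at 18.7 and 11.6 CPM, with a relative log2 ratio of -0.53. The oestrogen and progesterone receptors Esr1, Esr2 and Pgr had 75 UMIs or fewer in either library. Over the 19 tested members within 2-fold, relative log2 ratios ran from -0.53 to 0.84.

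In all, 11 members passed the minimum in no class (Nr1i3, Rxrg, Nr2e1, Nr2e3, Nr2f1, Esr1, Esr2, Esrrb, Nr5a1, Nr0b1 and Nr0b2). Their UMIs summed over the 4 classes and both libraries ran from 0 for Nr0b1 to 193 for Esr1. A count of 0, as for Nr0b1, allows up to 3 UMIs in a class, so low expression was not detectable at this depth and is not shown to be absent.

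Matches to nuclear receptor binding letters in promoters of the 12 members past 2-fold are shown because nuclear receptors often regulate each other's genes. The letters AGGTCA, to which most non-steroid receptors bind singly or as part of a repeat, were searched on both strands (TGACCT on the other) in windows from 250 bases before to 50 after each start site, in RefSeq promoters of build GRCm38.p6. Of the 12 members 11 had an entry, with 19 windows. Hnf4g had none. At least 1 match was found in 7 of the 19 windows (36.8%), in 12 of 62 windows of 41 members (19.4%) and in 5340 of 32851 windows of all genes (16.3%). Each line gives 30 bases in the direction of transcription with the match in capitals, 5′ to 3′.
Rxra, chr2:27709193-27709222, plus strand: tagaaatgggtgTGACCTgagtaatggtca
Rxra, chr2:27709232-27709261, plus strand: gggtggcaggaaAGGTCAgtcactctctgt
Pparg, chr6:115361104-115361133, plus strand: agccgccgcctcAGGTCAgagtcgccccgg
Pparg, chr6:115362328-115362357, plus strand: agggacgcgaggAGGTCAagaaggggcctg
Nr1h4, chr10:89506855-89506884, minus strand: ccgtgtggcattTGACCTccagccagtctt
Rara, chr11:98964892-98964921, plus strand: agcagattgcagcAGGTCAgtcctttggac
Thrb, chr14:17660764-17660793, plus strand: aggagagttgacAGGTCAagggaatagggc
Nr1d2, chr14:18239166-18239195, minus strand: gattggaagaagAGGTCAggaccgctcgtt

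The matched genes include both directions, with Rxra, Pparg, Rara and Nr1d2 among the higher members and Nr1h4 and Thrb among the lower ones. Both Pparg windows belong to different start sites, and the match of Rara began 33 bases after the start site. A match of these letters is a description and shows no binding, and windows of 1 gene are not independent.

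Several members, of which Nr1d1, Rara, Nr1d2 and Thrb moved, lie in the same neighbourhood of a chromosome (GENCODE M39, GRCm39). On chromosome 11, Thra (98629109 to 98661924, plus strand) overlaps the 3′ part of Nr1d1 (98658752 to 98666188, minus strand), and Rara (98818612 to 98865768, plus strand) follows. On chromosome 14, Nr1d2 (4230545 to 4266624, plus strand), Thrb (4429815 to 4809435, minus strand) and Rarb (5650540 to 6041094, plus strand) lie near each other. In the first cluster Nr1d1 and Rara were higher with Thra at -0.09, and in the second Nr1d2 was higher with Thrb lower. UMIs of Thra and Nr1d1 from the overlap can be told apart only by strand. The added Cre feature of the wrong strand held 3 UMIs against 3247 on the right one. Thrb spans 379621 bases, Nr1d1 7437 bases and Rora 734461 bases. Over the 31 tested members, Spearman's rho of the span with the level was 0.37 in the control library and 0.34 in the other, and with the relative log2 ratio 0.11, as a description over genes of the same 2 libraries.

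The next comparison was within the insulin class, between barcodes with 3000 or more insulin UMIs per 10000 and those with fewer, since the library labelled TBL/RβKO held more of the latter. The control had 2562 barcodes above and 315 below, and the library labelled TBL/RβKO 521 and 817. Of these, 152 and 216 lay between 2500 and 3500, so the division cuts through a range. The sets were unlike in depth. Median UMIs were 54482.5 at high and 22887 at low insulin in the control, and 73170 and 65128 in the other library. At low insulin 43.2% of the control barcodes and 81.9% of the others had 6000 detected genes or more. The part of depth in these comparisons was not tested. Between high-insulin barcodes of both libraries 6 members were higher and 3 lower of 29 tested, beside 4.16% and 2.25% of all genes tested there. Between low-insulin barcodes 4 were higher (Rara, Pparg, Nr1i2 and Rxra) and 4 lower (Thrb, Nr1h4, Vdr and Nr4a2) of 32 tested, beside 5.25% and 9.39% of all genes. Rorb was higher at high insulin (1.77 and 3.91 CPM, 1.32) and at -0.55 at low insulin. The pooled ratios of Rarg, Hnf4a, Nr4a3, Nr5a2 and Nr6a1 were above 0 while those at high and at low insulin were both below 0, of which Nr5a2 did not pass the minimum at high insulin.

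Differences between the libraries were present at high insulin, and that of Pparg was larger at low insulin. Pparg stood at 36.7 CPM (35.2 to 38.2) in high-insulin barcodes of the control and 82.4 CPM (78.4 to 86.6) in the like barcodes of the library labelled TBL/RβKO, and at 30.7 and 127 CPM in low-insulin ones. Nr1i2 stood at 0.712 and 7.87 CPM at high insulin and at 1.66 and 19.2 CPM at low insulin. Rara and Rxra were at 8.61 and 19.3 CPM and at 13.0 and 24.5 CPM at high insulin, with relative log2 ratios of 1.34 and 1.10.

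Nr1d1, Nr1d2 and Vdr also differed between high- and low-insulin barcodes of the control itself. Nr1d1 stood at 6.10 CPM (5.52 to 6.72) and 25.8 CPM (22.5 to 29.5) in control barcodes of high and low insulin, and at 19.2 and 38.6 CPM in those of the other library. Nr1d2 was at 26.9 and 46.9 CPM in the control and 40.1 and 68.7 CPM in the other, with a relative log2 ratio of 0.75 at high insulin. At low insulin the ratios of Nr1d1 and Nr1d2 were 0.79 and 0.76, within 2-fold. Vdr was at 149 and 78.7 CPM in the control and 66.3 and 29.8 CPM in the other, with a ratio of -0.99 at high insulin. For these 3 the level went with the insulin share in both libraries. So did those of Rara, Rxra, Nr1h3 and Nr1i2, though the control intervals of Nr1i2 overlapped. In low-insulin barcodes Rara was at 11.7 CPM in the control and 27.1 CPM in the other library, and Rxra at 18.9 and 37.7 CPM. The low-insulin barcodes of the control were also less deep than its high-insulin ones, and the part of depth was not tested.

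Nr4a2, Nr1h4 and Hnf4g differed less by insulin share than by library. Nr4a2 stood at 155 CPM in both control sets, and at 62.1 and 54.7 CPM in high- and low-insulin barcodes of the library labelled TBL/RβKO. Nr1h4 was at 31.9 and 27.2 CPM in the control and at 11.5 and 8.32 CPM in the other. Hnf4g was at 91.0 and 67.6 CPM and at 39.2 and 39.6 CPM, and its ratio at low insulin, -0.57, was within 2-fold. Thrb was higher in low-insulin barcodes of the control (123 CPM against 73.6 CPM) and stood at 34.2 and 34.0 CPM in the other library. Nr1h3 was at 20.5 and 12.1 CPM and at 12.0 and 6.47 CPM, and its ratio at high insulin, -0.59, was within 2-fold.

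**Figure D3:**
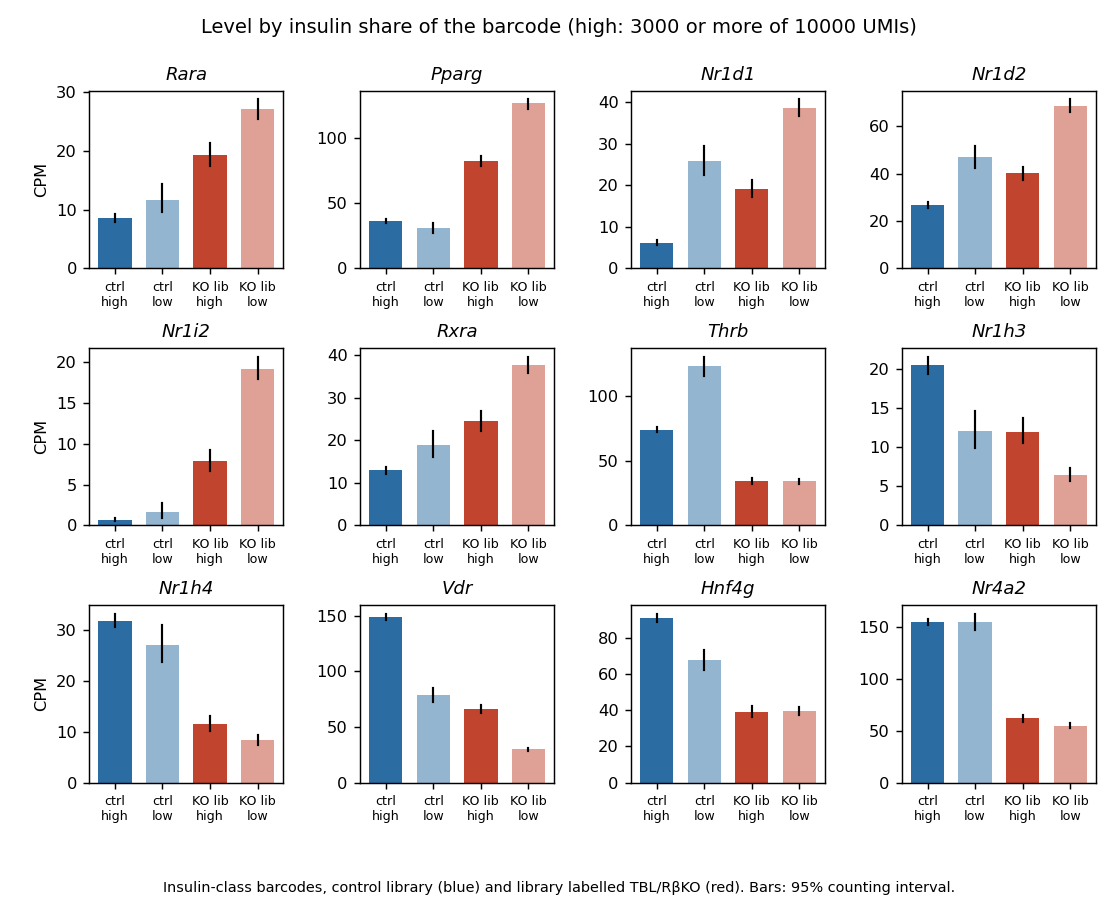
Levels in CPM (bars from 0, with 95% Poisson intervals) of the 12 receptors past 2-fold, in insulin-class barcodes with 3000 or more insulin UMIs per 10000 (dark) and fewer (pale), for the control (blue, ctrl) and the library labelled TBL/RβKO (red, KO lib). Nr4a2 is at 155 CPM in both control sets and at 62.1 and 54.7 CPM in the other library, whereas Nr1d1 is higher at low insulin in both libraries.

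In the Gcg class, which holds α-like barcodes, 2 of 30 tested members were higher (1.32% of all tested genes) and 0 lower (0.533% of all tested genes), or 6.67% in either direction beside 1.85% of all tested genes. The median size of the ratio was 0.19 over tested members and 0.14 over all genes. No test was made, so this 0 says only that no member passed 2-fold. The other 28 tested members ranged from -0.61 to 0.98, and Nr1d1 lay just inside the limit at 0.98 (4.15 and 8.28 CPM).

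Esrrg was higher in this class and did not depend on barcodes with several hormones. It stood at 153 CPM (148 to 159) and 334 CPM (327 to 341), with a relative log2 ratio of 1.10 (1.04 to 1.16). In barcodes whose second hormone was at 10% or less of glucagon it was at 142 CPM and 325 CPM. With a minimum of 1000 hormone UMIs per 10000 the ratio was 0.95. Esrrg was also higher by ratios of 0.75 in the Sst class (212 and 352 CPM) and 0.90 in the Ppy class (192 and 338 CPM), within 2-fold, and by 0.42 in the insulin class.

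In the library labelled TBL/RβKO, Pparg in the Gcg class came mostly from barcodes with a second hormone, with 365 of 418 UMIs. In the control, 24 of 49 UMIs lay in such barcodes. Pparg stood at 2.31 CPM (1.71 to 3.05) in the control and 16.0 CPM (14.5 to 17.6) in the other library, with a relative log2 ratio of 2.77. In barcodes with little second hormone it was found at 1.66 CPM (1.07 to 2.45) and 2.84 CPM (2.13 to 3.72), a ratio of 0.73. In the others it stood at 3.89 CPM (2.49 to 5.78) and 49.2 CPM (44.3 to 54.5). If Pparg had been carried into this class in the same proportion as Ins1, 1.07 CPM of the 16.0 would be expected. In the insulin class of that library Pparg was at 82.4 CPM at high and 127 CPM at low insulin, so Ins1 need not track it. The part of carried-over RNA was not tested. Nr1i2 had 0 and 51 UMIs in the class, at least 13.8-fold higher when the 0 is set to 3 UMIs over the class, and 44 of the 51 lay in barcodes with a second hormone.

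Of the 6 receptors lower in the insulin class, none was lower past 2-fold in the Gcg class. Vdr stood at 95.9 and 104 CPM there, Nr4a2 at 241 and 252 CPM, Nr1h4 at 24.5 and 25.8 CPM, Hnf4g at 32.7 and 37.5 CPM and Thrb at 126 and 112 CPM, all with relative log2 ratios between -0.20 and 0.17. Nr1h3 had 39 and 44 UMIs and did not pass the minimum. Rara stood at 5.84 and 8.44 CPM, a ratio of 0.51, and Rxra at 30.4 and 32.1 CPM, a ratio of 0.06. Whether the insulin and Gcg classes differ in these ratios was not tested.

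**Figure D4:**
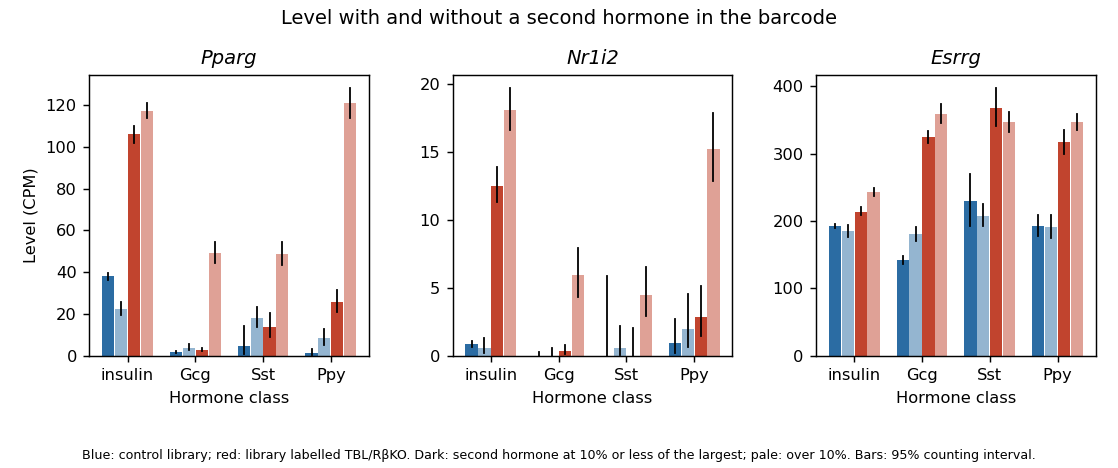
Levels in CPM (bars from 0, with 95% Poisson intervals) of Pparg, Nr1i2 and Esrrg by hormone class, in the control (blue) and the library labelled TBL/RβKO (red), for barcodes whose second hormone was at 10% or less of the largest (dark) and the others (pale). In the Gcg class Pparg is at 2.84 and 49.2 CPM in these sets of the library labelled TBL/RβKO, while Esrrg is at 325 and 359 CPM.

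In the Sst class 3 of 31 tested members were higher (1.99% of all tested genes) and 0 lower (1.37% of all tested genes), together 9.68% beside 3.36% of all tested genes, on few control UMIs. Nr2f2 (COUP-TFII), a receptor of stromal and endothelial cells, had 3 and 28 UMIs, or 0.754 CPM (0.155 to 2.20) and 3.56 CPM (2.37 to 5.15), with a relative log2 ratio of 2.26 (0.56 to 4.62), and reached the minimum of 2 CPM only in the library labelled TBL/RβKO. Stromal markers moved along, from 0.0187 to 0.198 UMIs per 10000 summed over 6, with Col1a1, Dcn and Pdgfrb at 0 in the control and none of the 6 at 10 CPM in either library, and their part in this value was not tested. Pparg stood at 16.1 and 40.4 CPM, a ratio of 1.35, and Rxra at 5.02 and 11.6 CPM, a ratio of 1.22. With a minimum of 1000 hormone UMIs per 10000, which left 96 and 145 barcodes, the ratios of Pparg and Rxra were 0.02 and -1.33. Only 38 control barcodes of this class had a second hormone at 10% or less of somatostatin.

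The Ppy class had 4 higher members (5.68% of all tested genes) and 1 lower member (2.44% of all tested genes) of 33 tested, together 15.2% beside 8.11% of all tested genes. Pparg stood at 4.49 CPM (2.93 to 6.58) and 94.5 CPM (89.4 to 99.8), from 26 and 1292 UMIs, a relative log2 ratio of 4.47 (3.92 to 5.09). In barcodes with little second hormone it was at 1.24 CPM (0.339 to 3.18) and 25.9 CPM (21.1 to 31.5). Nr1i2 stood at 1.38 and 11.8 CPM, a ratio of 3.17, and at 0.933 and 2.88 CPM in barcodes with little second hormone, with overlapping intervals (0.192 to 2.73 and 1.44 to 5.15). It reached 2 CPM only in the library labelled TBL/RβKO, and Pgr, below, only in the control. Nr1d1 was at 16.4 and 41.4 CPM, a ratio of 1.41, which was 0.79 without the barcodes with a second hormone. Nr4a3 was at 10.4 and 19.8 CPM, a ratio of 1.01.

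The lower member of the Ppy class was Pgr, with 17 UMIs in each library, or 2.93 CPM (1.71 to 4.70) and 1.24 CPM (0.724 to 1.99). Its ratio of -1.16 had an interval of -2.22 to -0.10. Thrb was at 186 and 94.0 CPM, a ratio of -0.90, within 2-fold. As given above, the Ppy class of the library labelled TBL/RβKO held more Tbl1x and Tbl1xr1 than the control's, and the part of this in its ratios was not tested. The summed level of the 6 stromal markers was 0.0504 UMIs per 10000 in the control Ppy class, with none at 10 CPM or more, and 1.29 in the other library, with 5 of them, while the ductal markers stood at 2.63 and 5.00. Col1a1, Col3a1 and Dcn were at 0 in the control. The part of these markers was not tested either.

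**Figure D5:**
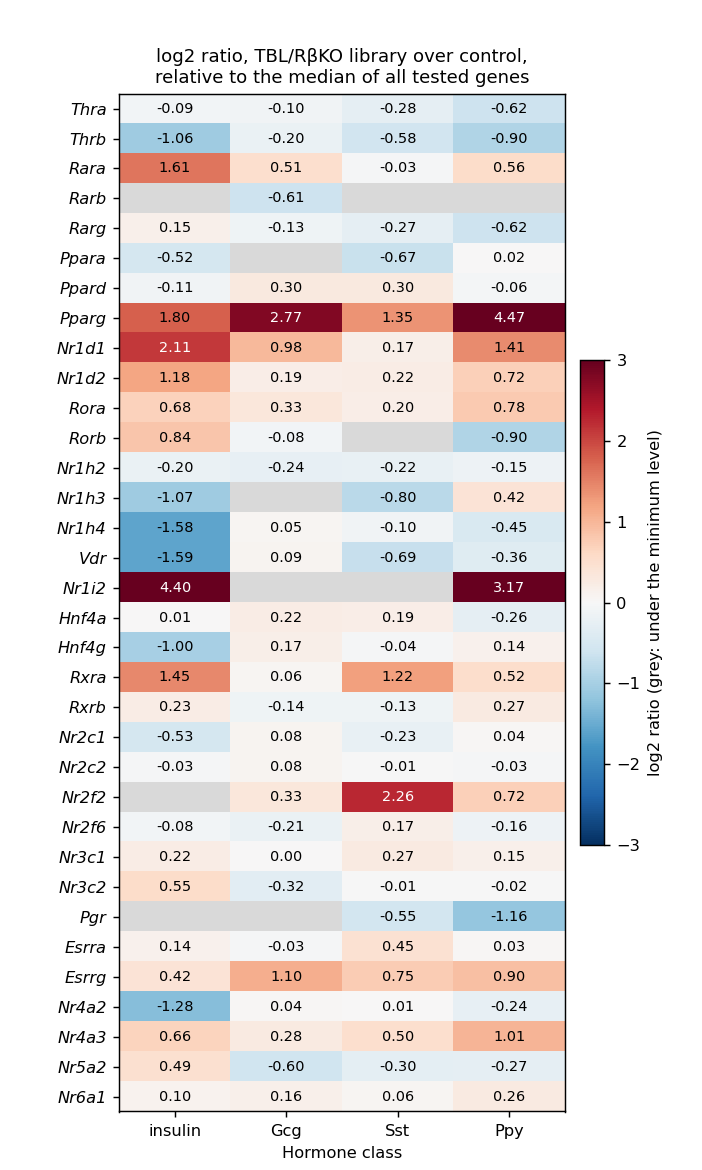
Relative log2 ratios of the library labelled TBL/RβKO over the control (colour, red for higher, blue for lower, limited at 3) for the 34 nuclear receptors tested in at least 1 of the 4 hormone classes (columns), with the value in each cell and grey for receptors under the minimum level. Pparg is past 2-fold in all 4 classes, and the 6 receptors past 2-fold on the lower side in the insulin class are within 2-fold in the other classes wherever they were tested.

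Across the 4 classes, 34 of the 45 members were tested in at least 1 class and 27 in all 4, and 16 of the 34 were past 2-fold in at least 1, beside 14.2% of all 12676 genes tested in 1 class or more. Of these, 8 were past 2-fold in the insulin class alone (4.17% of all such genes), and Pparg, Nr1i2 and Nr1d1 in both the insulin and the Ppy class (3.07% of all such genes).

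The receptors also differed between the islet classes within a library. In the control, Nr1h3 and Pparg stood at least 2-fold higher in the insulin class than in each other class, relative to the median of 12043 tested genes (3.00% of all genes were so placed). Nr1h3 was at 19.5 CPM there, against 1.84 CPM in the Gcg, 4.02 CPM in the Sst and 3.11 CPM in the Ppy class. Rorb was the member set apart in the Gcg class, at 10.1 CPM (1.54% of all genes). Nr5a2, a receptor of exocrine pancreas and liver, was set apart in the Sst class at 25.6 CPM, against 2.22 CPM in the insulin class, together with Nr1d1 at 33.4 CPM (2.52% of all genes). None was set apart in the Ppy class (0.930% of all genes).

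In the library labelled TBL/RβKO the same comparison placed other members. Vdr and Nr4a2 joined Rorb in the Gcg class (2.85% of all genes), as their insulin-class levels were 41.9 and 57.1 CPM, beside 104 and 252 CPM in the Gcg class. Nr1h3 alone was set apart in the insulin class (1.49% of all genes), as Pparg was also at 94.5 CPM in the Ppy class. Nr5a2 was again set apart in the Sst class at 20.6 CPM (2.63% of all genes), and none in the Ppy class (0.390% of all genes).

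Barcodes of no hormone class showed receptors that were also present in other cells of the preparation. They were grouped by macrophage, stromal, endothelial, B-cell and ductal markers, and groups of 20 barcodes or more were read. Macrophage-like barcodes (36 and 52) held Pparg at 101 and 60.5 CPM and Nr1h3 at 71.2 and 121 CPM, with Nr1i2 at 0 UMIs. Stromal-like barcodes (24 and 98) held Nr2f2 at 134 and 149 CPM. In ductal-like barcodes, 27 of the library labelled TBL/RβKO, Nr5a2 stood at 48.5 CPM and Rarb at 41.3 CPM, with Nr1i2 at 0 UMIs and Pparg at 14.4 CPM. B-cell-like barcodes, 61 of the same library, held 143 CPM of Nr3c1 and 0 UMIs of Pparg. Endothelial-like barcodes, 34 of that library, held 21.8 CPM of Nr2f2. The insulin class of that library held 187 CPM of Nr3c1 and 112 CPM of Pparg.

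Co-factors and target genes of the receptors were counted in 11 lists, of which 106 of 108 genes were found. Unless another class is named, ratios are relative log2 ratios of the insulin class, where the median of all tested genes is 0 by construction. In that class 5.46% of all tested genes were higher past 2-fold and 2.95% lower. Each count of a list below stands beside these shares, and whether a list differs from them was not tested. In the NCoR/SMRT complex 2 of 6 genes were higher, Tbl1x (1.56) and Tbl1xr1 (2.39), and none lower. Ncor1 was at 0.21 (495 and 513 CPM) and Hdac3 at -0.31. No gene was past 2-fold among 6 tested genes of other corepressors or 9 coactivators, where Ncoa1 stood at -0.39 and Ppargc1a at -0.30. Their medians were -0.01 and -0.11.

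Retinoid and thyroid genes moved in small numbers. Of 5 tested retinoid genes 2 were higher, among them the retinoic acid-forming enzyme Aldh1a3 (1.65 and 3.98 CPM, 1.43). Of 5 tested thyroid genes 1 was higher, the lipogenic factor Thrsp, at 1.69 and 86.1 CPM with a ratio of 5.83 (5.58 to 6.10). The deiodinase Dio1 was at -0.54 and the thyroid hormone-induced Klf9 at -0.18. The median was 0.35 over the retinoid genes and -0.18 over the thyroid genes. In the Gcg class Aldh1a3 had 4 and 55 UMIs and Thrsp 5 and 95, both under the minimum level.

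Among 15 clock genes 2 were higher, Bhlhe40 (12.9 and 35.9 CPM, 1.64) and Per3 (15.3 and 27.5 CPM, 1.01). Arntl and Clock, whose products form the activator of the clock and which are repressed through REV-ERB elements, were at 0.29 (65.7 and 72.0 CPM) and -0.41 (188 and 126 CPM). The list's median was 0.29. In the Gcg class Bhlhe40 was also past 2-fold (1.48), and Per3 was not (-0.07).

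The lists of PPAR and LXR targets held genes of both directions. Of 10 tested PPAR targets 2 were lower, the fatty acid transporter Cd36 (18.9 and 3.36 CPM, -2.33) and the fatty acid-binding protein Fabp4 (9.20 and 1.30 CPM, -2.66). Both are also expressed by macrophages and endothelial cells. In the same class the summed macrophage markers stood at 0.709 and 0.235 UMIs per 10000 and the endothelial ones at 0.178 and 0.144. The part of such cells in the ratios of Cd36 and Fabp4 was not tested. Plin2, which coats lipid droplets, lay just inside the limit (20.6 and 34.3 CPM, 0.90). Of 9 LXR targets 2 were higher, the cholesterol exporter Abca1 (138 and 320 CPM, 1.38) and the desaturase Scd1 (3.05 and 19.8 CPM, 2.86), and 1 was lower, Apoe (106 and 34.7 CPM, -1.45), also an abundant macrophage transcript. The part of macrophages in the ratio of Apoe was not tested either. The median over the LXR list was 0.72, over the PPAR list 0.45. The lower genes were lower in the Gcg class too. Apoe was at -1.65 and Cd36 at -1.04 there, and Fabp4 had 55 and 3 UMIs, under the minimum level. Abca1 and Scd1 were within 2-fold in the Gcg class (0.63 and 0.81). Whether the classes differ was not tested.

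Glucocorticoid targets and the HNF network each held 2 higher genes and none lower. They were Fkbp5 (77.1 and 198 CPM, 1.52) and Cdkn1a (94.8 and 210 CPM, 1.31) of 9 tested glucocorticoid targets, whose median was -0.14, and Foxa3 (1.04) and Ttr (1170 and 3069 CPM, 1.55) of 7 tested genes of the HNF list, whose median was 0.05. The glucocorticoid-induced Tsc22d3 was at -0.40. Of the steroid and vitamin D enzymes 1 gene was tested, Hsd17b4, at -0.49. In the Gcg class Fkbp5, Cdkn1a, Foxa3 and Ttr were within 2-fold (0.15, 0.23, 0.05 and -0.71).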

How the data were processed

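Single-cell RNA sequencing libraries (Chromium 3′, version 3.1) were made of islets of a control and a TBL/RβKO group, 1 library each. The deposited files are gene-by-barcode matrices of unnormalized UMI counts that the authors obtained from Cell Ranger 7.1.0 on GRCm39 (mm39) per the labels. By default this version also counts intronic reads, and other settings are not given in the sources used here. Neither a removal of free RNA nor of doublets was applied, and no doublet caller was used here: alternatives limit the detected genes and leave out barcodes with a second hormone.

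Barcodes with more than 2500 genes and under 10% mitochondrial UMIs were kept. The members, the gene lists, the classes and the limits were chosen with earlier results of these data known. Counts were summed by library and hormone class (100 or more UMIs of the largest hormone per 10000) and scaled to 1000000 UMIs outside 7 hormone genes and 13 mitochondrial genes. The control library held 241434108 UMIs and the other 185062206. Log2 ratios were centred on the median of genes with a mean of 2 CPM and 20 UMIs over both libraries. Intervals are exact (Poisson for levels, conditional binomial, Clopper-Pearson, for ratios) at 95%. With 1 library per group no p-value was computed, and 2-fold was the limit for naming a gene as higher or lower. Values were given for every member with a mean of 2 CPM in a class, and genes of the lists were named where past 2-fold in the insulin class or, chosen after their values were seen, as examples within it. A few genes of the lists are not reported here. Barcodes of no hormone class were named from marker lists. The script was tested on simulated counts. Alternatives were an upper limit of 6000 genes, other scalings, 1000 hormone UMIs per 10000, no second hormone over 10% of the largest, a mitochondrial share under 5%, the mean of CPM per barcode and a minimum of 5 CPM; those on high-insulin barcodes and on all UMIs without centring were chosen after seeing the data. Python 3.11.15, numpy 2.4.6, scipy 1.17.1, pandas 2.3.3 and matplotlib 3.10.9 were used. All 45 members matched GENCODE M39 by identifier.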

Additional observations from a re-analysis of the deposited data

Results flagged for a closer look

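For 6 receptors the ratio of the library labelled TBL/RβKO over the control had opposite signs in the insulin and Gcg classes, with counting intervals that did not reach 0. The difference between the classes was not tested, since each class of a library is 1 sample. Vdr was at -1.59 (-1.65 to -1.53) in the insulin class and 0.09 (0.01 to 0.18) in the Gcg class, a difference of -1.68 on the log2 scale. Hnf4g was 2.01-fold lower in the insulin class (log2 -1.07 to -0.93) and at 0.17 (0.03 to 0.32) in the Gcg class, a difference of -1.18. Nr5a2 was at 0.49 (0.17 to 0.81) and -0.60 (-1.10 to -0.11), a difference of 1.09, on few UMIs (168 and 160 in the insulin class, 79 and 65 in the Gcg class). Within high- and low-insulin barcodes the ratio of Nr5a2 was below 0 in both (-0.62, under the minimum level, and -0.82), so the opposite sign held only for the pooled insulin class. Nr3c2 was at 0.55 (0.50 to 0.60) and -0.32 (-0.38 to -0.25), a difference of 0.87, and its insulin-class ratio was 0.09 at high and 0.25 at low insulin. Ppard was at -0.11 (-0.20 to -0.02) and 0.30 (0.20 to 0.41), a difference of -0.41, but its sign in the insulin class turned under another scaling, so that no direction is given for it and the opposite signs hold only on the centred scale. Rxrb was at 0.23 (0.15 to 0.31) and -0.14 (-0.27 to -0.01), a difference of 0.37.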

How the results depend on the processing

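In the insulin class the number of higher members was 6 or 7 under every alternative named above, and Rara, Pparg, Nr1d1, Nr1h4, Nr1i2 and Rxra stayed past 2-fold in 9 of 9, Nr1d2, Vdr, Hnf4g and Nr4a2 in 8 and Thrb in 7. At high insulin the 6 included Rorb (1.32) and not Nr1d2 (0.75). The comparison of low-insulin barcodes was not among these alternatives. It gave 4 higher members, with Nr1d1 at 0.79. The number of lower members was 3 in high-insulin barcodes and 2 with CPM over all UMIs and no centring, and Nr1h3 was past 2-fold in 4 of 9 (-1.23 to -0.59). In the Gcg class the higher members were 1 with a hormone minimum of 1000 and 1 without barcodes with a second hormone, and the lower ones 1 by the mean of CPM per barcode. In the Sst class the higher members were 1 under 6000 genes, 0 with a hormone minimum of 1000 and 1 without a second hormone, and the lower ones 1 with that minimum and 1 by the mean per barcode. Rxra reversed there, from 1.22 to -1.33, at a hormone minimum of 1000. In the Ppy class the higher members were 2 without a second hormone, and the lower ones 0 with CPM over all UMIs, centred or not, 0 without a second hormone and 0 at a mean of 5 CPM. The causes were not tested. Over all single-receptor values and alternatives, 735 of 1029 stayed within their counting interval. The sign changed in 94 of the 1029, and among the 186 of receptors past 2-fold in 1, that of Rxra. No paired analysis was possible because each group has 1 library, and none could be left out. Depth limits the Sst and Ppy classes most, and the lowest receptors in all classes.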
